A study of Mus musculus with 50 samples.

Results

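The expression of 35 autophagy and lysosome genes was examined in blood-forming cells recovered from mice that had received a single haematopoietic stem cell (HSC). The 35 genes were taken by symbol from a list of named genes, and all 35 were found among the 19224 gene symbols of the count matrix. They comprise 8 cathepsins, 6 genes of the lysosome membrane and of lipid handling, 5 subunits of the vacuolar proton pump, the lysosomal regulators Tfeb and Mcoln1, 6 genes of the ATG8 family and its cargo receptor, and 8 genes of autophagosome initiation and conjugation.

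Per the labels, the donors of the single HSCs were B6-Ly5.2 mice with a β-actin-GFP transgene. Each HSC was given together with unfractionated bone marrow cells to a lethally irradiated B6-Ly5.2 mouse, so that every group shares irradiation and transplantation. Recipients were sampled at 1 month (10 samples, 5 of them marrow with spleen), 4 months (26, 4 with spleen) and 12 months (14, 6 with spleen), and the other samples were marrow alone. Cells were enriched with c-Kit beads and sorted singly by c-Kit, Sca-1, CD201 (the product of Procr), CD150, CD48 and lineage antigens or by GFP, and the ages of the mice were not given. Cell names carry a library and a cell number only, so no cell was assigned to a month, a tissue, a sort gate or a donor or host origin, and the matrix was treated as 1 pooled sample without replicates. Libraries are not replicates of any condition; ranges over libraries describe the spread and no p-value was computed.

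Autophagy encloses cytoplasm in a double membrane, the autophagosome, which fuses with the lysosome, where cathepsins and other acid hydrolases digest the contents. The membrane is started by the ULK1 kinase and the Beclin complex, is marked with lipids that WIPI proteins bind, and is decorated with ATG8 proteins of the LC3 and GABARAP subfamilies by a conjugation machinery that includes ATG3, ATG5, ATG7 and ATG12. In HSCs, autophagy is known to remove active mitochondria and to be needed for long-term maintenance, and HSCs at rest are known to hold large lysosomes.

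Cells were classed by marker genes that include none of the 35. Of 4185 cells kept, 1950 (46.6%) were Procr+ non-cycling cells, with Procr at 20 CPM (counts scaled to a common total) or more and neither lineage markers nor cell cycle genes past their gates. Cycling cells numbered 613 (14.6%), of which 61.3% were also Procr+. Another 475 cells were non-cycling and below the Procr gate, and 1070 cells fell into 9 classes with at least 3 lineage markers at 100 CPM. Levels of gate genes describe the classes and check nothing: Mki67, a proliferation gene, was at 141 CPM in cycling cells and at 5.35 CPM in Procr+ cells, and Procr was at 117 CPM in cycling cells and 361 CPM in Procr+ cells. A list of HSC genes outside the gates, Mecom, Hlf and Slamf1 among them, summed to 1036 CPM in Procr+ non-cycling cells. It summed to 841 CPM in the 475 non-cycling cells below the Procr gate, 934 CPM in macrophage-marker cells and 620 CPM in cycling cells. The gates are ranges rather than types. 336 non-cycling cells reached 3 mitosis or 6 replication genes without passing the cycling gate, and 400 lineage-marker cells had exactly 3 markers. Many cells past a lineage gate still carried Procr, at shares of 49.3% in the neutrophil-marker, 58.6% in the megakaryocyte-marker, 57.3% in the macrophage-marker and 69.1% in the primary-granule-marker class, so values of the cells with Procr below 20 CPM (Procr-low) are given beside those of the whole class.

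There were 67 libraries, each of 22 to 92 cells and with 1665151 to 26184494 counts, and the median kept cell had 122013 counts over 4186 genes. Cell names were unique, since each joins a library and 1 of 95 cell numbers, 93 of which recurred in more than 1 library. Procr+ non-cycling cells were found in 62 of the 67 libraries. The 3 libraries with TP in their names (TP55, TP56 and TP57), together with Lib1 and Lib19, held 0 of them, and what the TP names stand for is not stated in the labels. The TP libraries held 116 kept cells, among them 79 of 487 neutrophil-marker cells and 17 of 103 macrophage-marker cells, and macrophage-, neutrophil- and plasma-marker values that rest on them are also given without them.

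The 35 genes together took 0.341% of all counts in cycling cells, against 0.461% in Procr+ non-cycling cells. Per library with at least 5 cells of the class, the share ran from 0.240% through a median of 0.339% to 0.450% over 53 libraries in cycling cells, and from 0.312% through 0.458% to 0.542% over 60 libraries in Procr+ cells. It was lower in cycling than in Procr+ cells in 50 of the 50 libraries that held both. The highest shares stood in the macrophage-marker cells, at 1.22%, the monocyte-marker cells, at 0.862%, and the plasma-marker cells, at 0.739%. The lowest stood in the erythroid-marker cells, at 0.304%, of which 89.6% passed the cycling gate. The macrophage value rests on library TP56: its 17 cells gave 3.17%, and the other 86 macrophage-marker cells gave 0.640%, of which 57 were Procr+. These are shares of RNA counts, and a lower share cannot be told apart from more RNA of other genes in the same cells.

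**Figure D1:**
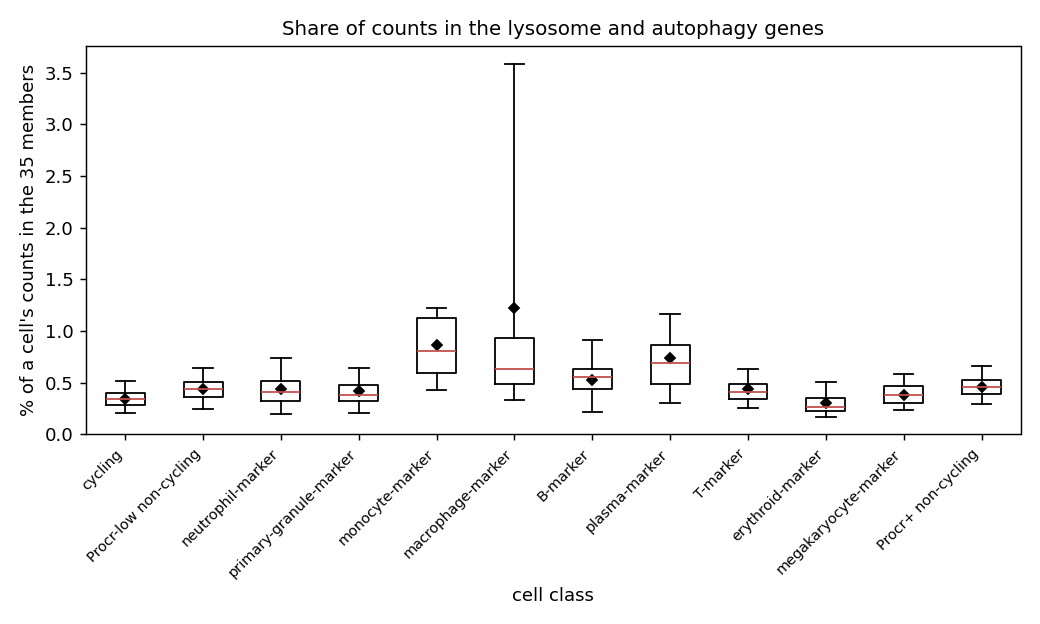
Percent of a cell's counts that fell in the 35 autophagy and lysosome genes, on the vertical axis, by cell class along the horizontal axis. Procr+ non-cycling cells are at the right end. Boxes give the median and quartiles over cells, whiskers the 5th to 95th percentile of cells, and diamonds the share of the summed counts of the class. The cycling cells, at 0.341% of summed counts, stand below the Procr+ cells, at 0.461%. The diamond of the macrophage-marker class stands far above its median cell, at 0.632%.

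Whether autophagy and lysosome genes differ between dividing cells and resting stem-like cells was asked by setting cycling cells against Procr+ non-cycling cells. A ratio is the log2 of CPM of the summed counts of each class with 1 CPM added to both, and a gene was called past 1.5-fold if it stood at 10 CPM or more over all kept cells. This left 8611 genes, among them 33 of the 35 members. Of these 33, 0 were higher and 8 were lower in cycling cells, beside a background over all 8611 genes of 8.77% higher and 9.67% lower. The median ratio of the 33 was −0.34, against −0.07 over all genes, and 30 of 33 members were below 0, against 57.4% of all genes. The median over members was below 0 in 49 of the 50 libraries with both classes. Scaling to the median of all genes left 0 members higher (background 10.6%) and 6 lower (background 7.59%), and Map1lc3a and Map1lc3b no longer passed the fold. Cycling cells were also the deeper ones, with a median of 180128 counts, against 123410.5 in Procr+ cells.

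Of the cathepsins, the proteases of the lysosome, Ctsl and Ctsh had the lowest ratios of all members. Ctsl (cathepsin L, an endopeptidase) was at 62.9 CPM in cycling cells (exact Poisson 95% interval 61.6 to 64.3), against 147.5 CPM in Procr+ cells (146 to 149). This is a log2 ratio of −1.22, and the intervals cover counting error only. Over libraries Ctsl ran from 4.10 through a median of 62.5 to 159 CPM in cycling cells and from 61.4 through 150 to 230 CPM in Procr+ cells. The 2 ranges overlapped, and Ctsl was lower in cycling cells in 46 of 50 libraries. Ctsh (cathepsin H, an aminopeptidase) was at 26.1 CPM in cycling cells (25.2 to 27.0) and 57.7 CPM in Procr+ cells (56.8 to 58.7), a ratio of −1.12, with the lower value in cycling cells in 41 of 50 libraries. Its levels in single libraries ran from 0 through 21.4 to 78.8 CPM in cycling cells and from 0 through 50.7 to 151 CPM in Procr+ cells, so that the ranges overlapped widely. Ctss (cathepsin S, the protease that trims the invariant chain in antigen-presenting cells) was at 27.1 CPM in cycling cells and 43.4 CPM in Procr+ cells, a ratio of −0.66 with the lower value in cycling cells in 38 of 50 libraries. The summed level of the macrophage markers was 44.7 CPM in cycling cells and 45.2 CPM in Procr+ cells, and that of the neutrophil markers 98.8 CPM in cycling cells and 102 CPM in Procr+ cells, with no marker of either list at 0. Their part in the Ctss ratio was not tested.

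The other 5 cathepsins were not called. Ctsb (cathepsin B) was at 218 CPM in cycling cells and 299 CPM in Procr+ cells (−0.45), and Ctsd (cathepsin D, the main aspartic protease) at 292 CPM in cycling and 359 CPM in Procr+ cells (−0.30). Ctsa, the protective protein of β-galactosidase and neuraminidase, had a ratio of −0.21, and Ctsc, which activates granule serine proteases, one of −0.24. Ctsz (cathepsin Z, a carboxypeptidase) stood at 122 CPM in cycling cells and 120 CPM in Procr+ cells. The median ratio of the 8 cathepsins was −0.38.

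No gene of the lysosome membrane or of lipid handling was called, and the median of these 6 was −0.41. Lamp2, a lysosome membrane glycoprotein with a role in chaperone-mediated autophagy, was at 103 CPM in cycling cells and 143 CPM in Procr+ cells, and was lower in cycling cells in 42 of 50 libraries. Psap, the precursor of the saposins that help degrade sphingolipids, had a ratio of −0.49, and the cholesterol exporters Npc1 and Npc2 had ratios of −0.51 and −0.36. Lamp1, the other major membrane glycoprotein, went the other way, at 47.6 CPM in cycling cells and 42.3 CPM in Procr+ cells (0.17). Hexa, a subunit of β-hexosaminidase, was at a ratio of −0.02.

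None of the 4 proton pump subunits tested was called, with ratios of −0.13 for Atp6v1a, −0.17 for Atp6v1h, −0.32 for Atp6v1b2 and −0.34 for Atp6v0d1. Mcoln1, the calcium channel of the lysosome membrane, had a ratio of −0.26. Tfeb, the transcription factor that drives lysosomal genes, stood at 6.71 CPM in cycling cells and 5.16 CPM in Procr+ cells, and the pump subunit Atp6v0c at 2.31 CPM in cycling cells and 2.43 CPM in Procr+ cells. Both were under the minimum level and were not tested.

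The ATG8 family and its receptor held 4 of the 8 members called lower, out of 6, with a median of −0.62. Gabarapl1, an ATG8 protein of the GABARAP subfamily, was at 222 CPM in cycling cells (219 to 225) and at 402 CPM in Procr+ cells (399 to 404), a ratio of −0.85. It ran from 11.5 through 211 to 407 CPM over libraries in cycling cells and from 29.0 through 381 to 581 CPM in Procr+ cells, and was lower in cycling cells in 44 of 50 libraries. Sqstm1 (p62), the receptor that carries ubiquitinated cargo to ATG8 proteins, was at 136 CPM in cycling cells (134 to 138) and 240 CPM in Procr+ cells (238 to 241), a ratio of −0.81. Sqstm1 was lower in cycling cells in 46 of 50 libraries, from 15.2 through 142 to 266 CPM, against 142 through 233 to 295 CPM in Procr+ cells. The LC3 gene Map1lc3b was at 441 CPM in cycling cells and 684 CPM in Procr+ cells (−0.63), with the lower value in cycling cells in 48 of 50 libraries, and Map1lc3a at 35.8 CPM in cycling and 55.1 CPM in Procr+ cells (−0.61), lower in 36 of 50. Gabarap, at 398 CPM in cycling cells and 480 CPM in Procr+ cells, and Gabarapl2, with a ratio of −0.37, were not called.

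Of the 8 initiation and conjugation genes, Ulk1 alone was called. Ulk1 encodes the kinase that starts autophagosome formation, and it was at 11.4 CPM in cycling cells and 20.6 CPM in Procr+ cells (−0.80). It was lower in cycling cells in 38 of 50 libraries, and values of 0 occurred in libraries of both classes. The membrane-recruited genes Wipi1 and Wipi2 had ratios of −0.52 and −0.17, Becn1 (Beclin 1) −0.23, and the conjugation genes Atg12 −0.43, Atg7 −0.33, Atg5 −0.04 and Atg3 0.04.

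**Figure D2:**
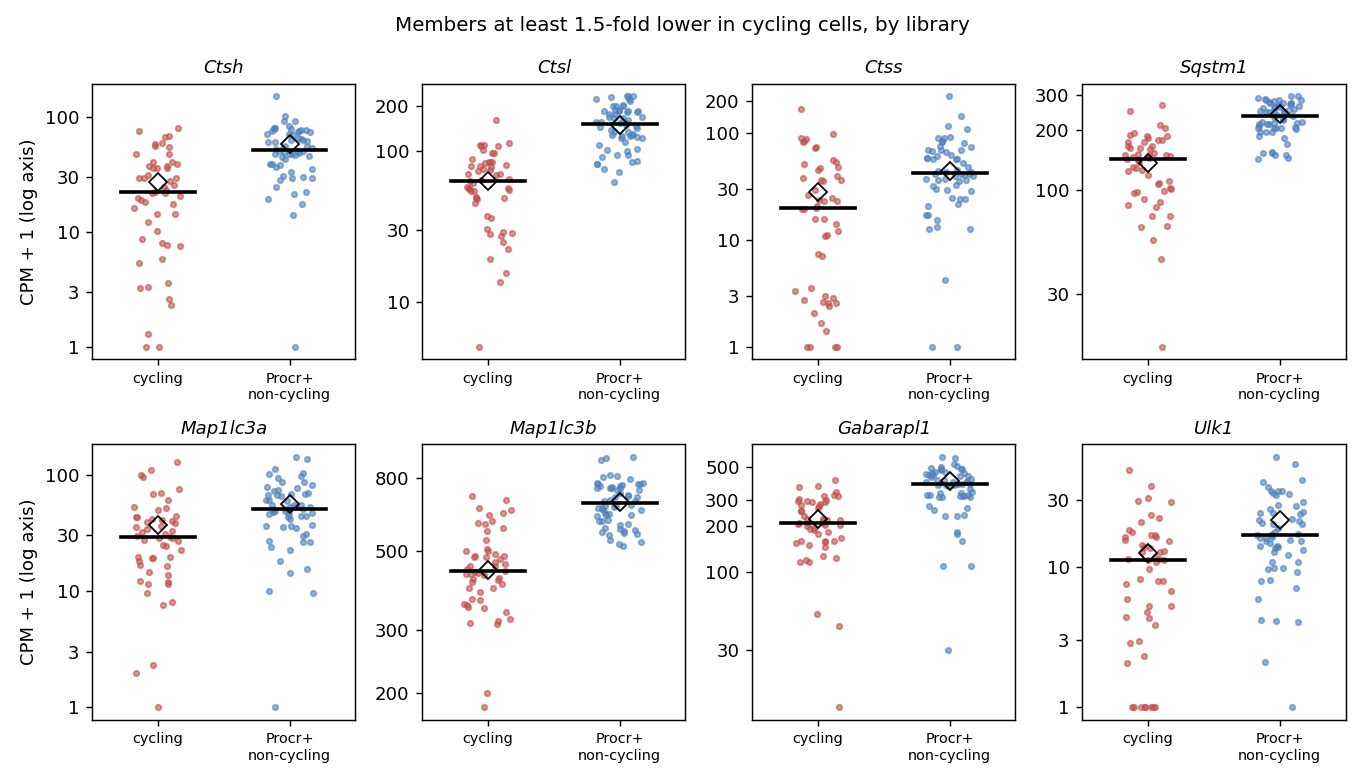
Level of the 8 members called lower in cycling cells, in CPM plus 1 on a log axis; each point is 1 library with at least 5 cells of the class (53 libraries for cycling, left, and 60 for Procr+ non-cycling, right), the bar is the median over libraries and the open diamond the summed class. The 2 clouds overlapped for every gene, with cycling medians below Procr+ medians: 62.5 against 150 CPM for Ctsl and 211 against 381 CPM for Gabarapl1.

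More cells lacked any count of these genes among cycling cells although these were deeper. A count of Ctsl was present in 63.8% of cycling cells and 73.6% of Procr+ cells, and after each cell was thinned to 20000 counts, which kept 583 cycling and 1852 Procr+ cells, in 43.4% of cycling and 59.9% of Procr+ cells. Before thinning, Ctsh counts were found in 39.8% of cycling and 44.2% of Procr+ cells, and after it in 20.8% of cycling and 32.2% of Procr+ cells. Gabarapl1 was found in 95.3% of cycling and 96.1% of Procr+ cells before thinning and in 85.4% of cycling and 93.2% of Procr+ cells after it. Sqstm1 was found in 91.4% of cycling and 93.2% of Procr+ cells before thinning and in 74.6% of cycling and 85.7% of Procr+ cells after it.

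Cells past the mitosis gate and cells past the replication gate only were then set against the same Procr+ cells, which both comparisons share. The mitosis gate does not single out cells in mitosis. Replication genes summed to 4856 CPM in the cells past it and to 3520 CPM in cells past the replication gate only. Ctsl was at 42.1 CPM in the 270 cells past the mitosis gate (−1.79) and at 81.6 CPM in the 343 cells past the replication gate only (−0.85), against 147.5 CPM in Procr+ non-cycling cells. Of the 33 members, 10 were lower in the mitosis-gate cells (background 14.9%) and 7 in the replication-only cells (background 9.14%). Wipi1 (−0.70) and Psap (−0.62) passed the fold in the mitosis-gate cells, and Npc1 (−0.69) in the replication-only cells. In the 376 cycling cells that were themselves Procr+, 8 members were lower (background 7.62%) and Ctsl was at 72.6 CPM (−1.01). Ctsl, Ctsh, Gabarapl1 and Sqstm1 stayed past the fold in each of the 17 alternative settings tried. Settings that change only the minimum level leave the ratio as it was.

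A list of 113 other lysosome and autophagy genes was read in the same way, and 99 of the 112 found in the matrix were tested. In cycling cells 0 of the 99 were higher and 13 were lower, with a median ratio of −0.22, beside the background of 8.77% higher and 9.67% lower over all genes. The largest ratio belonged to Ctsf (cathepsin F), at 22.4 CPM in cycling cells and 68.8 CPM in Procr+ cells (−1.58), lower in 47 of 50 libraries. Calcoco1, which encodes a selective autophagy receptor, was at 16.9 CPM in cycling cells and 41.0 CPM in Procr+ cells (−1.23), and Slc38a9, the lysosomal arginine sensor, at 34.5 CPM in cycling and 64.4 CPM in Procr+ cells (−0.88). Foxo1, a transcription factor that drives autophagy genes, was at 9.62 CPM in cycling cells and 17.5 CPM in Procr+ cells (−0.80), and the acid phosphatase gene Acp2 at 6.94 CPM in cycling and 12.7 CPM in Procr+ cells (−0.78). The 5 highest ratios, none of them past the fold, belonged to the pump subunit Atp6v0a2 (0.48), the autophagy receptor Optn (0.41), the chloride transporter Clcn7 (0.41), the membrane glycoprotein Cd68 (0.37) and the lipid transporter Abca2 (0.28). Libraries did not share this direction. Of 50 libraries, Optn and Clcn7 were lower in cycling cells in 28 each, Cd68 in 26, and Atp6v0a2 and Abca2 in 25 each. By group, 5 of 26 other hydrolases, 2 of 17 membrane genes, 1 of 11 pump subunits, 1 of 15 regulators and 4 of 30 autophagy genes were lower.

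The promoters were read because lysosomal genes are known to carry a palindromic E-box, CACGTG, in the element that TFEB binds. Promoter windows of 250 bases before and 50 after each start listed for a gene were taken from RefSeq (GRCm38.p6), and both strands were searched. In it 27 of the 35 members were matched, with 33 windows. A gene counted as having the core if any of its windows held it. CACGTG was found in 10 of the 27 members (37.0%) and in 8.09% of 27025 genes, and the 8 bases TCACGTGA, which contain that core, in 6 of the 27 (22.2%) and in 1.12% of genes. Stretches around the cores are shown for 9 of the 10 members, on the strand of the gene, 5′ to 3′, with CACGTG in capitals, so that the bases beside the core can be compared. For Ctsd, Ctsa and Mcoln1, which held 2 cores each, the stretch shown holds 1 of them:
Lamp1 (chr8:13159088-13159160, + strand): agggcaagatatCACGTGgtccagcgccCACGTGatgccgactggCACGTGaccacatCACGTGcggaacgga
Atg3 (chr16:45158723-45158775, + strand): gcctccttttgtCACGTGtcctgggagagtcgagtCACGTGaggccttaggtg
Ctsd (chr7:142387908-142387937, − strand): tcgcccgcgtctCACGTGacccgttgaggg
Ctsl (chr13:64370739-64370768, − strand): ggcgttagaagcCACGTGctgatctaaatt
Ctsa (chr2:164833749-164833772, + strand): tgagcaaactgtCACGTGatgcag
Mcoln1 (chr8:3500436-3500465, + strand): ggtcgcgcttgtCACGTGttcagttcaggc
Atp6v1a (chr16:44139373-44139402, − strand): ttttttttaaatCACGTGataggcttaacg
Atg5 (chr10:44268313-44268338, + strand): cggagcgcttgcCACGTGgtcttggt
Atg7 (chr6:114670952-114670981, + strand): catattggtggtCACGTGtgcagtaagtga
Lamp1 held 4 cores within 73 bases and Atg3 held 2 within 53 bases. The stretches of Ctsd, Ctsl, Ctsa and Mcoln1 overlapped an annotated exon and those of the others did not. Those of Atg7, Ctsa, Ctsd, Ctsl and Atp6v1a lay inside the annotated span of the gene, and that of Mcoln1 in part. For Atg7 this span begins at chr6:114643097, far before the stretch shown.

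Of the 10 members with the core, 1 was called lower in cycling cells, which was Ctsl, and their median ratio over Procr+ cells was −0.24. Lamp1, with its 4 cores, had the highest ratio of the members tested. The 15 tested members whose promoter lacked it had a median of −0.47, with 5 called lower. The background is the 9.67% of all genes called lower. A match of letters is a description of the window, and binding was not measured.

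The lineage-marker classes were next set against the Procr+ non-cycling cells, which every one of these comparisons shares. No reference cell passed the cycling gate. It was passed by 89.6% of erythroid-, 44% of monocyte-, 41.2% of primary-granule-, 37.1% of megakaryocyte- and 26.7% of neutrophil-marker cells. In the plasma-, macrophage-, T- and B-marker classes the shares were 15.6%, 15.5%, 11.8% and 6.52%. Each ratio therefore compares cells that differ in both lineage markers and the share of cycling cells. Each count of members is given beside the share of all 8611 genes past the fold. The classes were cut on their markers, so the levels of these describe the classes and check nothing: S100a8 was at 11440 CPM in neutrophil-marker cells, C1qa at 2241 CPM in macrophage-marker cells, Jchain at 30872 CPM in plasma-marker cells, Cd79a at 3184 CPM in B-marker cells, Pf4 at 1205 CPM in megakaryocyte-marker cells, Klf1 at 507 CPM in erythroid-marker cells and Mpo at 1081 CPM in primary-granule-marker cells. The T-marker class held 17 cells, the monocyte-marker class 25 and the B-marker class 46.

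**Figure D3:**
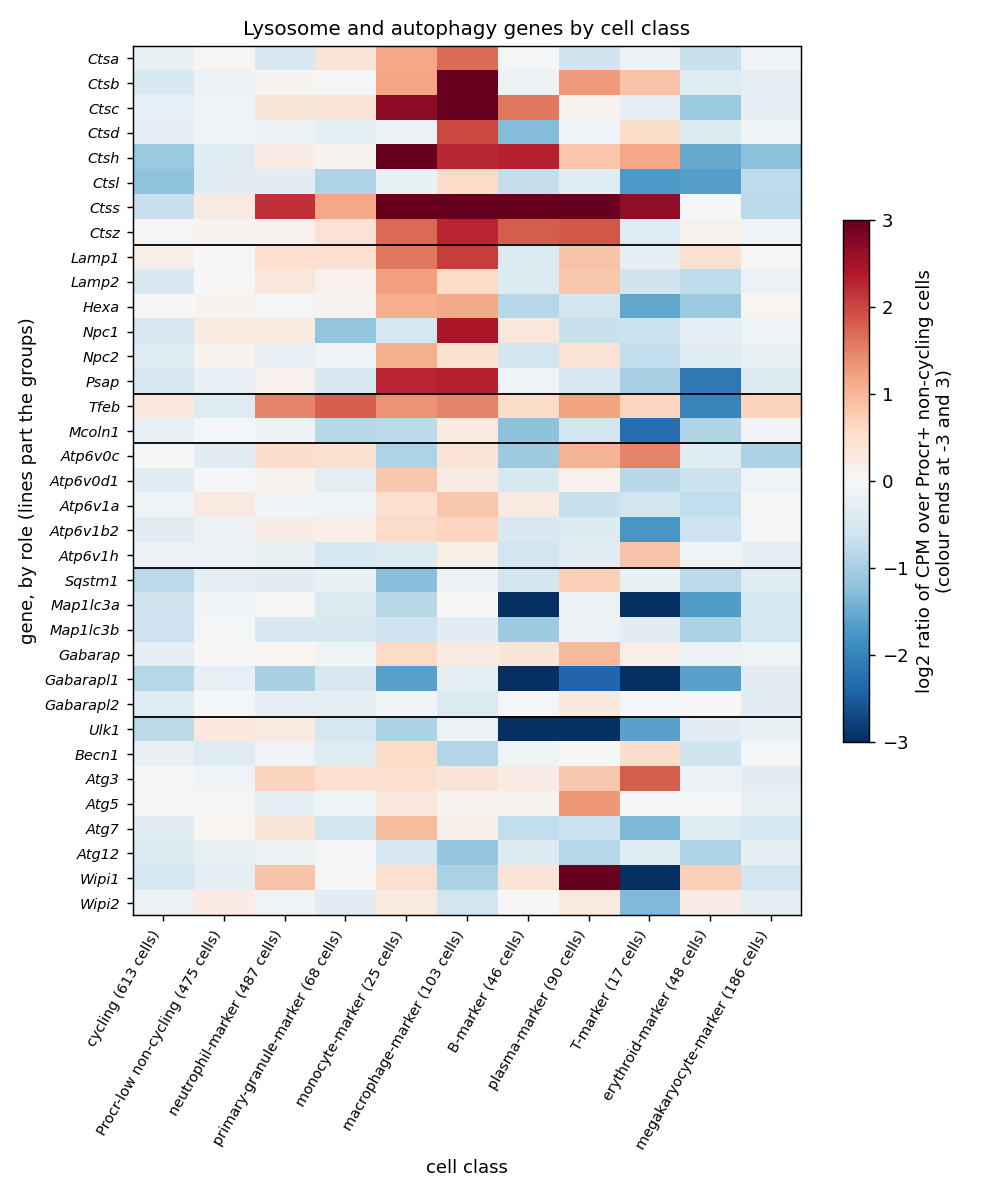
Heat map of the log2 ratio of each member (down the page, by role, roles separated by lines) in each class (across) over Procr+ non-cycling cells; colours end at −3 and 3, and Tfeb and Atp6v0c were under the minimum level. The cathepsins were mostly higher in the monocyte-marker and macrophage-marker columns, Ctss at 5.08 and 5.16, while Gabarapl1 was lower in the neutrophil-, monocyte-, B-, plasma-, T- and erythroid-marker columns.

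In macrophage-marker cells 13 members were higher and 3 lower (background 19.6% higher and 11.8% lower), with a median of 0.40. They included 7 of 8 cathepsins higher (median 2.27) and 4 of 6 membrane and lipid genes, while 3 of 8 initiation and conjugation genes were lower. Ctss was at 1590 CPM in macrophage-marker cells (1573 to 1608) and 43.4 CPM in Procr+ cells, a ratio of 5.16, and Ctsb at 2792 CPM in macrophage-marker cells (2769 to 2816) and 299 CPM in Procr+ cells, a ratio of 3.22. Over the 5 libraries with enough macrophage-marker cells, Ctss ran from 112 through 199 to 6148 CPM and Ctsb from 618 through 946 to 8710 CPM, the highest of both being TP56. That library held 89.1% of the Ctss counts and 71.8% of the Ctsb counts of the class. Without the TP libraries Ctss was at 226 CPM (2.35), Ctsb at 1022 CPM (1.77), Ctsd at 845 CPM (1.23), Ctsc at 191 CPM (1.23), Psap at 224 CPM (1.29) and Lamp1 at 85.2 CPM (0.99), and these 6 members remained higher (background 15.6%), with a median of 0.09 over the 33. Ctsa, Ctsh, Ctsz, Hexa, Npc1, Atp6v1a and Atp6v1b2 no longer passed the fold. Npc1 was at 69.4 CPM with the TP libraries and 17.0 CPM without them.

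The members lower in macrophage-marker cells were Atg12, at 19.3 CPM against 44.1 CPM in Procr+ cells (−1.15, lower in 4 of 4 libraries), Wipi1, at 7.30 CPM against 15.1 CPM in Procr+ cells (−0.95, lower in 4 of 4), and Becn1, at 6.59 CPM against 13.0 CPM in Procr+ cells (−0.88). They stayed lower without the TP libraries, with ratios of −0.87 for Atg12, −0.81 for Wipi1 and −0.76 for Becn1 (background 7.91%). In the 44 macrophage-marker cells with Procr below 20 CPM, 19 members were higher (background 24.4%) and 6 lower (background 26.7%), and Ctsb was at 4699 CPM. The TP libraries gave 15 of these 44 cells, and in the other 29 cells 10 members were higher (background 21.8%) and 5 lower (background 17.9%), with Ctsb at 1348 CPM (2.17) and Ctss at 271 CPM (2.61).

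In the 25 monocyte-marker cells 14 members were higher and 6 lower (background 18.6% and 36.4%), with a median of 0.49, against −0.27 over all genes. Scaled to that median, 20 were higher and 3 lower (background 26.1% and 27%). Cathepsins (6 of 8) and membrane and lipid genes (5 of 6) were higher, and 4 of 6 ATG8 and receptor genes were lower. Ctss was at 1506 CPM in monocyte-marker cells (1472 to 1541) and 43.4 CPM in Procr+ cells (5.08), and 1 cell held 24.7% of those counts. Ctsh was at 526 CPM in monocyte-marker cells (506 to 547) and 57.7 CPM in Procr+ cells (3.16), Ctsc at 522 CPM in monocyte-marker and 80.7 CPM in Procr+ cells (2.68), and Psap at 448 CPM in monocyte-marker and 91.1 CPM in Procr+ cells (2.29). Gabarapl1 was at 130 CPM in monocyte-marker cells (120 to 140) and 402 CPM in Procr+ cells (−1.62), and Sqstm1 at 99.4 CPM in monocyte-marker cells (90.8 to 109) and 240 CPM in Procr+ cells (−1.26). Without library Lib55, which gave 5 of the cells, Sqstm1 was at 57.3 CPM (−2.05). Only 1 library held 5 or more of these cells, so no spread over libraries can be given, and the neutrophil markers summed to 2266 CPM in them and to 102 CPM in Procr+ cells. The part of these cells in the values was not tested. In the 15 monocyte-marker cells with Procr below 20 CPM, Ctss was at 1893 CPM and Gabarapl1 at 40.9 CPM, and in the 13 of them outside the TP libraries Ctss was at 1336 CPM and Gabarapl1 at 55.8 CPM.

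In plasma-marker cells 11 members were higher and 7 lower (background 16.2% and 42.5%). Scaled to the median of all genes (−0.42), 14 were higher and 2 lower (background 27.1% and 28.2%). Ctss was at 1499 CPM in plasma-marker cells (1472 to 1527) and 43.4 CPM in Procr+ cells (5.08), with counts in 83 of 90 cells, and ran from 66.0 through 1749 to 2371 CPM over 8 libraries. It was higher in plasma-marker cells in 7 of 8 libraries. The monocyte markers summed to 3332 CPM in plasma-marker cells and to 51.9 CPM in Procr+ cells, and their part in the Ctss level was not tested. Wipi1, which binds the lipid phosphatidylinositol 3-phosphate on the forming autophagosome, was at 165 CPM in plasma-marker cells (156 to 174) and 15.1 CPM in Procr+ cells (3.37). Wipi1 was higher in 7 of 8 libraries, from 0 through 97.2 to 299 CPM in plasma-marker cells. The 4 plasma-marker cells of TP56 held 45.4% of its counts, and without the TP libraries it stood at 99.9 CPM (2.65). The conjugation gene Atg5, at 164 CPM in plasma-marker cells and 66.4 CPM in Procr+ cells (1.29), and Gabarap, at 943 CPM in plasma-marker and 480 CPM in Procr+ cells (0.97), were also higher. Sqstm1 was at 394 CPM in plasma-marker and 240 CPM in Procr+ cells (0.71), and both Gabarap and Sqstm1 were higher in plasma-marker cells in 8 of 8 libraries. Ulk1 was at 1.29 CPM in plasma-marker cells (10 counts, 0.618 to 2.37) and 20.6 CPM in Procr+ cells (−3.24), lower in 8 of 8 libraries. Gabarapl1 was at 77.1 CPM in plasma-marker cells (71.0 to 83.5) and 402 CPM in Procr+ cells (−2.37), lower in 6 of 8. In the Procr-low plasma-marker cells Wipi1 was at 182 CPM and Gabarapl1 at 51.5 CPM, and without the TP libraries at 101.2 and 52.8 CPM.

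In B-marker cells 4 members were higher and 9 lower (background 17.9% and 41.2%), which became 8 and 6 (background 27.6% and 31.6%) when scaled to the median of all genes (−0.33). The 4 higher members were cathepsins. Ctss was at 1312 CPM in B-marker cells (1273 to 1352) and 43.4 CPM in Procr+ cells (4.89), with counts in 45 of 46 cells and 586, 1095 and 1822 CPM in the 3 libraries with at least 5 of them. Ctsh was at 289 CPM in B-marker cells (271 to 308) and 57.7 CPM in Procr+ cells (2.30), Ctsz at 427 CPM in B-marker and 120 CPM in Procr+ cells (1.83), and Ctsc at 244 CPM in B-marker and 80.7 CPM in Procr+ cells (1.59). Map1lc3a gave 1 count in all B-marker cells together, or 0.308 CPM (0.00779 to 1.71), against 55.1 CPM in Procr+ cells, and Ulk1 gave 3 counts, or 0.923 CPM (0.190 to 2.70), against 20.6 CPM in Procr+ cells. Gabarapl1 was at 28.9 CPM in B-marker cells (23.4 to 35.4) and 402 CPM in Procr+ cells (−3.75). 1 cell, in library Lib1, held 56.4% of those Gabarapl1 counts, and the ratio was −4.76 without it. Of the lower members, Ctsl, Mcoln1 and Atg7 also moved by more than 1.5-fold without their Lib1 cells, to ratios of −1.86, −2.17 and −1.92, against −0.71, −1.23 and −0.73 with them. B-marker cells were among the shallowest, with a median of 51708.5 counts.

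In the 17 T-marker cells 5 members were higher and 15 lower (background 19% and 48%), and single cells decided many of these values. Scaled to the median of all genes (−0.51), 8 were higher and 10 lower (background 32.5% and 36%). Ctss was at 282 CPM in T-marker cells (256 to 310; 2.67), of which 1 cell gave 56.3%, and the ratio was 1.71 without that cell. Atg3, the enzyme that hands ATG8 proteins to lipid, was at 267 CPM in T-marker cells (242 to 295) and 75.5 CPM in Procr+ cells (1.81), with counts in 10 of 17 cells. Gabarapl1 was at 10.6 CPM in T-marker cells (6.05 to 17.2) and 402 CPM in Procr+ cells (−5.12). Map1lc3a gave 3 counts, or 1.98 CPM (0.409 to 5.80), and Wipi1 gave 0 counts, which allows a level of up to 1.98 CPM at 3 counts, against 15.1 CPM in Procr+ cells. The ratio of Ctsh, 1.16, turned to −0.87 without 1 cell that held 79.7% of its counts. Ctsb and Atp6v1h also lost the call without 1 cell, with ratios of 0.50 and 0.42.

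In erythroid-marker cells 1 member was higher and 17 lower (background 19.3% and 35%), with a median of −0.61, against −0.19 over all genes. Scaled to that median, 2 were higher and 10 lower (background 25.7% and 28.4%). Before scaling, those lower included 4 of 8 cathepsins, 3 of 4 proton pump subunits and 4 of 6 ATG8 and receptor genes. Psap was at 20.0 CPM in erythroid-marker cells (17.6 to 22.5) and 91.1 CPM in Procr+ cells (−2.14), Map1lc3a at 16.4 CPM in erythroid-marker cells (14.3 to 18.8) and 55.1 CPM in Procr+ cells (−1.68), and Ctsl at 46.2 CPM in erythroid-marker and 147.5 CPM in Procr+ cells (−1.65). Wipi1 was at 25.5 CPM in erythroid-marker cells (22.9 to 28.4) and 15.1 CPM in Procr+ cells (0.72), and its ratio was 0.56 without 1 cell. The next highest ratio was that of Lamp1, at 58.5 CPM in erythroid-marker cells (0.46), which was not called. Ctsh, with a ratio of −1.52, was at −2.32 without library Lib3, and Becn1 (−0.61) was at −0.57 without it. Since 89.6% of the class passed the cycling gate, erythroid markers and cycling cannot be told apart in this class. In the 5 non-cycling erythroid-marker cells Psap and Map1lc3a stayed lower, and the ratio of Wipi1 turned to −2.79.

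In megakaryocyte-marker cells 0 members were higher and 3, all cathepsins, were lower (background 6.71% and 7.43%). Without library Lib102, which gave 21 of the 186 cells, 0 were higher and 5 lower (background 6.85% and 8.72%). Ctsh was at 24.0 CPM in megakaryocyte-marker cells (22.4 to 25.7) and 57.7 CPM in Procr+ cells (−1.23), lower in 9 of 12 libraries. Ctss was at 24.2 CPM in megakaryocyte-marker cells (22.6 to 25.8) against 43.4 CPM in Procr+ cells (−0.82), lower in 11 of 12, and Ctsl at 87.2 CPM against 147.5 CPM in Procr+ cells (−0.75), lower in 10 of 12. The highest ratios were those of Hexa, at 130 CPM (126 to 133) against 124 CPM in Procr+ cells (0.06), and Atp6v1a, at 74.5 CPM (71.7 to 77.4) against 72.7 CPM in Procr+ cells (0.04), neither past the fold. The cycling gate was passed by 37.1% of these cells, and in the 117 non-cycling ones Ctsl and Ctss were no longer called, with ratios of −0.19 and −0.22. In the 77 megakaryocyte-marker cells with Procr below 20 CPM, 12 members were lower (background 18.7%), with Ctss at 8.77 CPM (−2.18). Of these 77 cells, 57.1% passed the cycling gate.

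In neutrophil-marker cells 3 members were higher and 1 lower (background 18.2% and 15.8%), with a median of −0.01. Ctss was at 201 CPM in neutrophil-marker cells (198 to 205) and 43.4 CPM in Procr+ cells (2.19), and TP57 held 60.5% of its counts. It ran from 3.58 through 73.8 to 611 CPM over 16 libraries and was higher in neutrophil-marker cells in 6 of the 10 libraries with both classes. Without TP57 it was at 99.3 CPM (1.18), and without the 3 TP libraries at 87.9 CPM (1.00). Wipi1 was at 28.2 CPM in neutrophil-marker cells (26.8 to 29.6; 0.86) and 26.3 CPM without the TP libraries (0.76), against 15.1 CPM in Procr+ cells. Gabarapl1 was at 205 CPM in neutrophil-marker cells (201 to 209) and 402 CPM in Procr+ cells (−0.97), but at 270 CPM without the TP libraries, where it was not called (−0.57). Atg3, at 120 CPM (0.66), was at 113 CPM (0.58) without TP57 and at 83.8 CPM (0.15) without the TP libraries, where 2 members were higher and 0 lower (background 13.9% and 7.12%). Ctsa, at 80.6 CPM (78.3 to 83.0) against 113 CPM in Procr+ cells (−0.48), was not called. In the Procr-low neutrophil-marker cells, of which 33.2% passed the cycling gate, Gabarapl1 was at 74.3 CPM (−2.42) and Ctss at 360 CPM. Among them 7 members were higher (background 22.7%) and 5 lower (background 29.6%). The TP libraries gave 78 of these 247 cells, and in the other 169 Gabarapl1 was at 131 CPM (−1.61) and Ctss at 177 CPM (2.00), with 1 member higher (background 17.8%) and 4 lower (background 20.9%).

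In primary-granule-marker cells, the class with Mpo and its companions, 1 member was higher and 3 lower (background 11% and 15.8%). Without library Lib42, which gave 20 of the 68 cells, 1 was higher and 10 were lower (background 13.1% and 23.1%), and in the 21 cells with Procr below 20 CPM 4 were higher and 11 lower (background 15.7% and 35.6%). The cycling gate was passed by 61.9% of those 21 cells. Ctss was at 97.8 CPM in primary-granule-marker cells (92.0 to 104) and 43.4 CPM in Procr+ cells (1.15), higher in 3 of 4 libraries. Atg3, at 107 CPM (100.8 to 113) against 75.5 CPM in Procr+ cells (0.50), was not called. Ctsl was at 77.8 CPM (72.6 to 83.2) against 147.5 CPM in Procr+ cells (−0.91), lower in 4 of 4 libraries. Npc1 was at 4.64 CPM (3.44 to 6.11) against 11.9 CPM in Procr+ cells (−1.19), and it was not called in the Procr-low cells (−0.55). Mcoln1 was at 10.8 CPM against 20.1 CPM in Procr+ cells (−0.83), at 6.77 CPM without library Lib42 (−1.44), and was not called among non-cycling cells (−0.33).

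**Figure D4:**
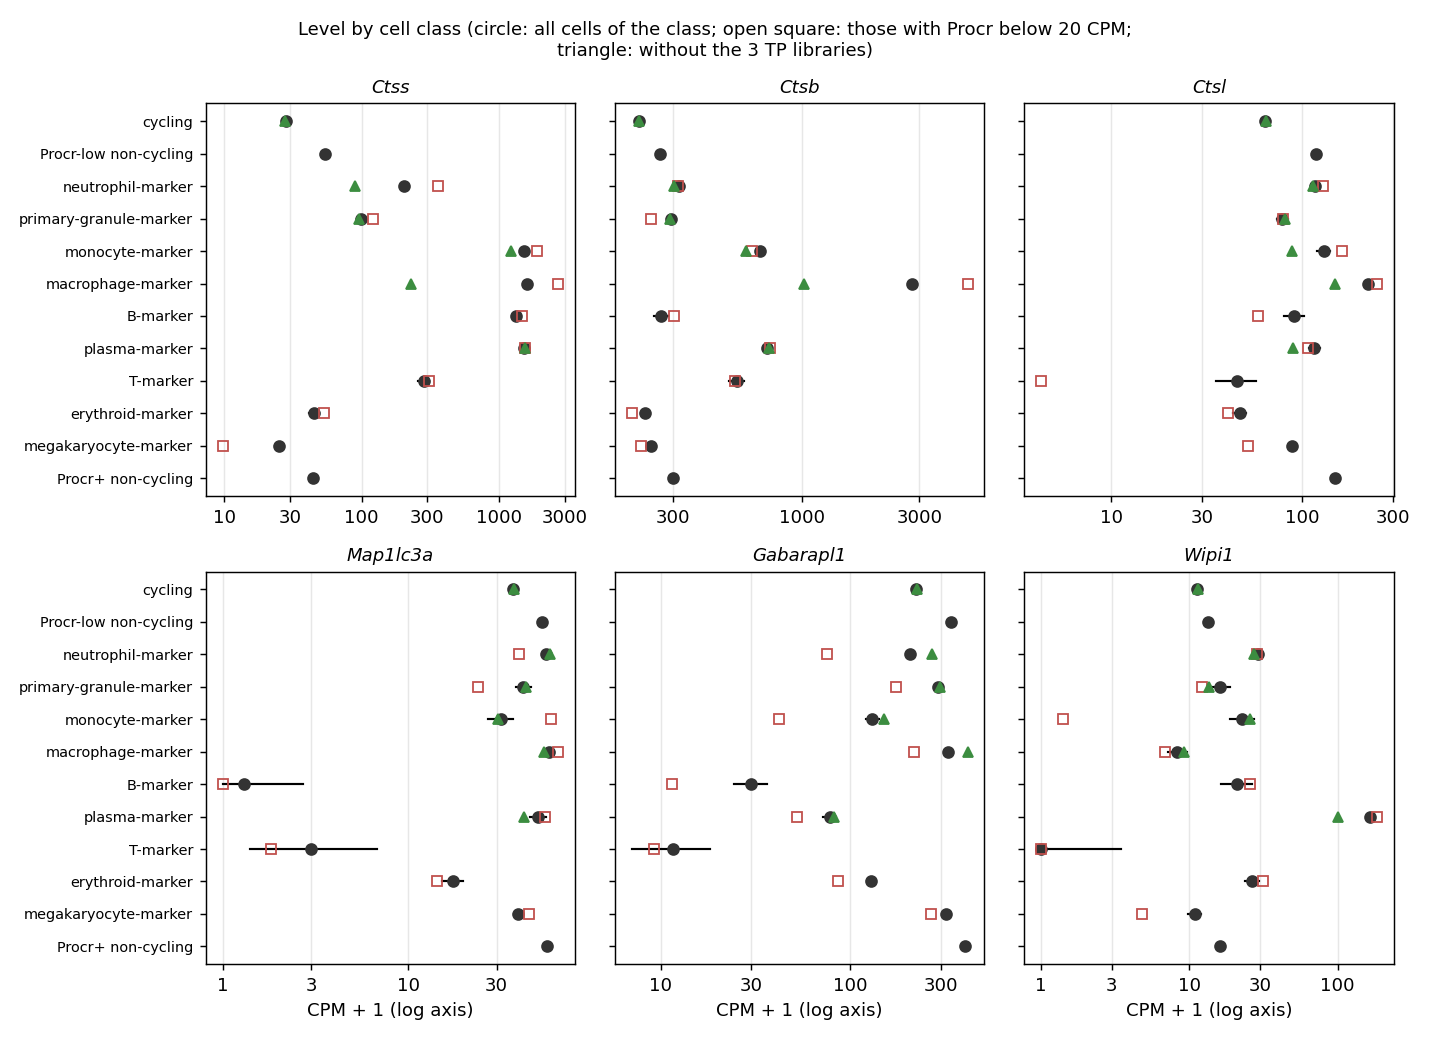
Levels of 6 members by class in CPM plus 1 on log axes, with Procr+ non-cycling cells at the bottom; circles are the summed class with exact Poisson intervals (mostly hidden by the circle), open squares the cells of the class with Procr below 20 CPM (TP libraries included), and triangles the class without the 3 TP libraries. Ctss stood between 1312 and 1590 CPM in the monocyte-, macrophage-, B- and plasma-marker classes, with the macrophage triangle at 226 CPM, and Wipi1 stood at 165 CPM in the plasma-marker class.

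Across the 12 classes with all libraries, Gabarapl1 and Map1lc3b were highest in the Procr+ non-cycling cells, at 402 and 684 CPM. Without the TP libraries Gabarapl1 was at 415 CPM in macrophage-marker cells, above the Procr+ cells. With all libraries the nearest class for both was the 475 non-cycling cells below the Procr gate, with Gabarapl1 at 337 CPM and Map1lc3b at 668 CPM, and plasma-marker cells were next for Map1lc3b, at 609 CPM. In those 475 cells 0 of 33 members were higher and 0 lower (background 2.16% and 1.92%), with a median of −0.05 and ratios between −0.36 for Becn1 and 0.33 for Ulk1. Tfeb, under the minimum level for a ratio, was at 20.4 CPM in primary-granule-marker and 0.535 CPM in erythroid-marker cells, against 5.16 CPM in Procr+ cells. It was at 16.3 CPM in macrophage-marker and 16.2 CPM in neutrophil-marker cells, but at 6.65 and 8.10 CPM in these classes without the TP libraries.

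Within the Procr+ non-cycling cells, 3 splits by genes outside the list were made among cells with at least 50000 counts. Vwf, which marks platelet-biased HSCs, was at 50 CPM or more in 139 cells and at 0 in 1261. Between these 2 groups 0 members were higher and 0 lower (background 4.35% and 6.12%), with ratios of Vwf+ over Vwf 0 cells between −0.58 for Ctss (29.9 CPM in Vwf+ and 45.3 CPM in Vwf 0 cells) and 0.53 for Map1lc3a (76.1 CPM in Vwf+ and 52.5 CPM in Vwf 0 cells). The 1077 cells with Cd34, a gene that is low in the most quiescent mouse HSCs, at 50 CPM or more had 2 members higher and 1 lower (background 15.7% and 9.01%) than the 56 cells without a Cd34 count and with Slamf1 (CD150) at 20 CPM or more. Wipi1 was at 14.5 CPM in Cd34+ cells and 1.69 CPM in the Slamf1+ Cd34 0 cells (2.53), the second value resting on 13 counts in 2 cells, and the ratio was 1.72 with cells thinned to 20000 counts. Npc1 was at 13.3 CPM in Cd34+ and 5.84 CPM in Slamf1+ Cd34 0 cells (1.06), and Mcoln1 at 18.1 CPM in Cd34+ and 51.6 CPM in Slamf1+ Cd34 0 cells (−1.46). After the same thinning the ratio of Npc1 was 0.11 and no longer called. 1 cell gave 36.9% of the Mcoln1 counts of the Slamf1+ Cd34 0 cells, and only 3 libraries held at least 5 of these cells.

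The last split set 425 cells with at least 4 of 10 interferon-response genes at 50 CPM against 467 cells with at most 1. Of the members 2 were higher and 0 lower (background 2.39% and 2.52%). Ctss was at 52.1 CPM in interferon-high cells and 32.0 CPM in interferon-low cells (0.68), higher in 17 of 30 libraries. Ulk1 was at 26.1 CPM in interferon-high cells and 17.0 CPM in interferon-low cells (0.59), higher in 15 of 30. Neither passed the fold without 1 library, with ratios of 0.57 for Ctss without Lib77 and 0.50 for Ulk1 without Lib68. The 35 genes took 0.472% of counts in interferon-high and 0.451% in interferon-low cells, 0.489% in Vwf+ and 0.457% in Vwf 0 cells, and 0.451% in Cd34+ and 0.504% in Slamf1+ Cd34 0 cells. The median ratio of the 33 tested members in Cd34+ over Slamf1+ Cd34 0 cells was −0.22 over the summed cells. Within the 3 libraries that held both groups it was above 0 in each, from 0.06 to 0.21.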

How the data were processed

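The values deposited by the authors are raw counts, whole numbers for each gene in each cell. The tools were HISAT2 2.1.0, HTSeq 0.9.1 and Trimmomatic 0.36 with the build GRCm38, per the submitters' processing notes. Per the labels' protocols, cells were processed by a modified Smart-seq2 and STRT-seq method with barcoded oligo-dT primers that reads 3′ ends. Whether reads were collapsed by molecular identifiers and whether counting used strand was not found in the labels. Amplified reads are not independent molecules, so intervals cover counting error only. Of the 35 genes, 18 overlap another gene and 11 an opposite-strand coding gene, Sqstm1 and Map1lc3b among them, and their counts are uncertain to that extent.

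Of 4271 cells used, 76 had under 1000 detected genes and 10 more had over 10% mitochondrial counts, which left 4185. The 17 columns of 1 further library were not used. Cycling cells had at least 5 of 20 mitosis or 8 of 20 replication genes at 50 CPM, and lineage-marker cells at least 3 markers of 1 list at 100 CPM, the list with most markers deciding. The 59 cells tied between lists and the 18 in classes of under 15 cells were left out. Cells were sorted singly and no doublet caller was run. Whether cells with both lineage markers and Procr held RNA of more than 1 cell was not tested. Counts were summed per class and scaled to CPM, with a pseudocount of 1 CPM for log2 ratios. Genes under 10 CPM over all kept cells were not tested, and 1.5-fold (0.58 on the log2 scale) was the call. Exact Poisson 95% intervals were given per class. The edge of detection was set at 3 counts. There are no replicates, so no model across samples was fitted, and the planned months were not compared.

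Every member could be named. Levels or ratios were given for members called in cycling cells, for the 2 highest and 2 lowest ratios of each lineage class, and for the 5 largest ratios each way among other pathway genes. Of the members called in cycling cells, only Ctsl, Ctsh, Gabarapl1 and Sqstm1 were given with intervals and ranges over libraries. The 35 members, the lists and the gates were chosen with earlier results of these data known. Python 3.11.15, numpy 2.4.6, scipy 1.17.1, pandas 2.3.3 and matplotlib 3.10.9 were used, and the ratio calculation was tested on simulated data.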

Additional observations from a re-analysis of the deposited data

How the results depend on the processing

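No paired analysis was possible because no cell is tied to a sample and no test between samples was made. Over the 17 alternatives for cycling against Procr+ non-cycling cells, 0 members were higher under each and the median ratio stayed between −0.40 and −0.24. The number of members lower, 8 as reported, ran from 5 to 9, and the 5 came from the gate of 3 mitosis or 6 replication genes. Over all genes the share lower was 9.67% as reported and 7.59% with median scaling. It was 7.62% for cycling cells that were also Procr+ and 9.62% without the TP libraries. It is not given here for every alternative, so the range of counts is not read as a trait of the members. By the ratio alone, Ctsl, Ctsh, Gabarapl1 and Sqstm1 stayed past the fold under all 17. Map1lc3a and Map1lc3b fell under it in 5 each, Ctss and Ulk1 in 2 each, with 0 reversals. The settings of the minimum level do not alter a ratio. At a minimum of 50 CPM, Map1lc3a (48.0 CPM over all kept cells) and Ulk1 (18.7 CPM) were no longer tested and so also lost the call. Over the 9 lineage-marker classes, 52 pairs of a member and a class were higher and 64 lower. No share over all genes was summed over the classes for these totals, or for those within Procr+ cells given below. That share moves with the setting too: in plasma-marker cells 42.5% of all genes were lower, and 28.2% with median scaling. The totals are therefore not read as a trait of the members. The 64 became 41 with median-of-ratios scaling, 37 with a minimum level of 50 CPM, 102 without the cell with most counts of the gene, 104 without the library with most counts of the gene and 101 among cells with Procr below 20 CPM and without the TP libraries. The alternatives by Procr level, by replication genes alone, and without the cell or library with most counts of the gene or the TP libraries were chosen after seeing the data. The cell or library taken out was picked for its counts of the gene, which tilts these settings towards lower values of the class. The library was also taken out of the reference cells, and neither setting has to lower the ratio. Within Procr+ cells, 4 pairs were higher and 1 lower. The 4 became 1 with a minimum level of 50 CPM and 2 without the library with most counts of the gene. The 1 became 2 with the mean of CPM per cell, 3 with cells thinned to 20000 counts, 0 with a minimum level of 50 CPM, 2 without the library with most cells and 3 without the library with most counts of the gene.

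Of 2088 values of called lineage pairs under alternatives, 1885 stayed past the fold, 183 fell under it and 20 turned direction. The cause was not tested. Only the ratio was read here. It is unchanged by the settings of the minimum level, which gave 116 of the 1885 values each. Pairs no longer tested at 50 CPM are therefore counted there as past the fold. Ctsh in T-marker cells turned to −0.16 with the mean of CPM per cell, −0.081 with thinned cells, −0.28 with at least 4 markers, −0.87 without 1 cell and −0.73 without 1 library, and Npc1 there to 0.12 with at least 4 markers. In monocyte-marker cells Mcoln1 turned to 0.64 with the mean of CPM per cell and 0.13 among non-cycling cells, and Map1lc3a to 0.072 among cells with Procr below 20 CPM. Among those cells without the TP libraries Map1lc3a turned to 0.25, Ulk1 to 0.31 and Atg7 to −0.37 in monocyte-marker cells, and Atp6v1b2 to −0.21 in macrophage-marker cells. In plasma-marker cells Atp6v1a turned to 0.011 with at least 2 markers. Among non-cycling erythroid-marker cells Ctsc turned to 0.84, Sqstm1 to 0.39, Becn1 to 0.39, Lamp2 to 0.12, Atp6v1b2 to 0.034 and Wipi1 to −2.79. Depth limits the B-, plasma- and T-marker classes most, where some members rest on 10 counts or fewer.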
